A study of Mus musculus with 9 samples.

Results

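Heterotrimeric G protein subunits and RGS proteins were compared between sorted cell subsets of mouse pancreatic islets. The members were all protein-coding genes whose symbol names a Gα subunit (Gna), a Gβ subunit (Gnb), a Gγ subunit (Gng) or a regulator of G protein signalling (Rgs), apart from 1 Gα gene that was not analysed here. They numbered 55 of 55536 genes in the tables and of 22028 protein-coding genes. They were 15 Gα genes, 5 Gβ genes, 12 Gγ genes, 21 RGS genes and 2 genes for membrane anchors of RGS proteins, Rgs7bp and Rgs9bp, whose symbols begin in the same way. RNA was sequenced from islets of C57B/L6 mice aged 12 weeks, which had been cultured overnight, dispersed to single cells and sorted by FACS for 2 surface proteins. The beta-enriched subset was CD24 low and CD71 positive, the alpha-enriched subset was CD24 low and CD71 negative, and the delta-enriched subset was CD24 high. Each subset had 3 libraries, the labels name no treatment or genetic change in any of them, and they do not say whether the libraries of a subset came from separate animals or pools. The p-values therefore measure the spread between these libraries, which may be partly technical.

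A heterotrimeric G protein couples a receptor in the plasma membrane to enzymes and channels inside the cell. The active receptor makes Gα exchange GDP for GTP, Gα-GTP and the free Gβγ pair then act on their effectors, and hydrolysis of the GTP by Gα ends the signal. RGS proteins speed up that hydrolysis, so the set of RGS proteins in a cell shapes how long a signal lasts and through which Gα family it runs. In islets, Gi and Go couple somatostatin and adrenergic receptors to inhibition of hormone secretion, and Gq couples muscarinic and other receptors to phospholipase C.

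The libraries held 5663141 to 9529920 expected counts. The defining hormone genes followed the labels. Insulin transcripts in alpha libraries were at 8.25% (Ins1) and 8.96% (Ins2) of their mean level in beta libraries, and in delta libraries at 0.886% and 0.737%. Gcg, the glucagon gene, was at 0.440% of its alpha level in beta libraries and 4.90% in delta libraries, and Sst, the somatostatin gene, was at 0.00911% of its delta level in beta libraries and 0.219% in alpha libraries. Ribosomal RNA took 34.4% of the counts of beta replicate 2 and 3.15% to 5.37% of the others. All 12 markers of acinar cells had counts in every library, with a sum of 128 to 306 in beta libraries, 410 to 2628 in alpha libraries, and 1557, 1207 and 17206 in delta libraries, the last in replicate 3. The 3 markers of PP cells were summed in CPM (each count divided by its library's total, here without TMM scaling). The sums were 39.3 to 89.9 in beta libraries, 2913 to 3928 in alpha libraries and 4795 to 7330 in delta libraries. The 3 markers did not move together. Pyy had 10962, 11203 and 7629 counts in alpha libraries and 21105, 27322 and 24687 in delta libraries. Ppy had 17363, 19131 and 11739 in alpha libraries and 10807, 14187 and 11726 in delta libraries. Sertm1 had 138, 95 and 102 in alpha libraries and 2, 4 and 9 in delta libraries. The immune markers Ptprc, Cd52 and Tyrobp were at 0 in all 9 libraries, and the 8 immune markers summed to 8 to 36 counts per library.

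A member was called enriched in a subset when it was at least 2-fold higher there than in each of the other subsets and an intersection-union test over both differences passed. Of the 55 members, 37 had enough counts to be tested. Beta libraries were enriched for the Gγ gene Gng12 and for Rgs11. Alpha libraries were enriched for the Gα gene Gnai1 and for Rgs4 and Rgs6, and delta libraries for the Gβ gene Gnb4 and for Rgs2, Rgs9 and Rgs22. The same rule called 2.76% of all 15896 tested genes in beta, 1.83% in alpha and 3.89% in delta libraries. Without beta replicate 2 and delta replicate 3, the libraries that stood apart, the same 2, 3 and 4 members were enriched in beta, alpha and delta libraries. In bulk RNA of a sorted subset, fewer cells of a type and less RNA per cell cannot be told apart.

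The promoters of 5 enriched members on which the comparisons turn are given as the 250 bases before the RefSeq transcription start, on build GRCm38.p6, 5′ to 3′ on the gene's strand. Gng12 (chr6:66896147-66896396, plus strand) is the member enriched in beta libraries with the highest level. Gnai1 (chr5:18360414-18360663, minus strand) and Rgs4 (chr1:169747643-169747892, minus strand) are enriched in alpha libraries, as is Rgs6, whose promoter is not printed. Rgs9 (chr11:109298182-109298431, minus strand) and Rgs2 (chr1:144004150-144004399, minus strand) are the RGS genes with the highest levels among those enriched in delta libraries. Capitals mark the letters TATAAA and the half-site TGACG of the cyclic AMP response element. Both were searched on both strands, so that CGTCA is the same half-site on the other strand.
Gng12: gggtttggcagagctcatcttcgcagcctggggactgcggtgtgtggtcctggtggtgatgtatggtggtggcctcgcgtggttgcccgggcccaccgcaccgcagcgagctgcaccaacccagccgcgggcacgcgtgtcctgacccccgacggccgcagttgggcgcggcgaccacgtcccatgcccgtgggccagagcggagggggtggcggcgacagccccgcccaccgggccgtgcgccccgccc
Gnai1: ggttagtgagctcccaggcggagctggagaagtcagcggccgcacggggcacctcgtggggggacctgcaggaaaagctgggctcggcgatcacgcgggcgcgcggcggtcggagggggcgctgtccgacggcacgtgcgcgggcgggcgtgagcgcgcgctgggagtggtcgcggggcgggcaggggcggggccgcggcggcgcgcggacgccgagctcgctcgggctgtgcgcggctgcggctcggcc
Rgs4: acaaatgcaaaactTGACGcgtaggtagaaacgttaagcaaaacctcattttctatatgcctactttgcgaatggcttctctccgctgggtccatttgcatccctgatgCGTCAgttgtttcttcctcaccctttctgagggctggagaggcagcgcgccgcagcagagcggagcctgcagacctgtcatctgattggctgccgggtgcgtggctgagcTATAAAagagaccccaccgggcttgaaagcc
Rgs9: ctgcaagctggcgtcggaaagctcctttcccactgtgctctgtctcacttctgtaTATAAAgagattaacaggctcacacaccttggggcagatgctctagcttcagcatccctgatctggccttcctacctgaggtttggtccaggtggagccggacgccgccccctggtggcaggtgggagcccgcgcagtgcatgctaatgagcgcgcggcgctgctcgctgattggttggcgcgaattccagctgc
Rgs2: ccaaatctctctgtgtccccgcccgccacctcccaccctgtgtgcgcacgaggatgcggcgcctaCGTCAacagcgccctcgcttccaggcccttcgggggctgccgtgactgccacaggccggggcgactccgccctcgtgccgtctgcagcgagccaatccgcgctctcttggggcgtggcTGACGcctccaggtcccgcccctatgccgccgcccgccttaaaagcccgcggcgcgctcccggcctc
Promoters of members enriched in the same subset differed in these letters. The Rgs4 promoter held TATAAA 31 bases before the start and 2 half-sites. Those of Gnai1 and Rgs6, enriched in the same subset, held neither. The Rgs9 promoter held TATAAA 195 bases before the start and no half-site, and the Rgs2 promoter held 2 half-sites and no TATAAA. CpG pairs numbered 28 in Gng12, 43 in Gnai1, 13 in Rgs4, 14 in Rgs9 and 30 in Rgs2, against a median of 14 over the 40 members listed in the RefSeq table and 6.0 over all 27025 promoters of that table. Of those 40 members, 6 (15%) held TGACG on either strand, against 17.8% of all promoters. TATAAA stood on either strand in 5 (12.5%), against 13% of all promoters. The full element TGACGTCA was in 0 of the 40 member promoters and in 1.60% of all. A match of letters is a description and not a binding site.

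The leading Gγ and RGS transcripts were not the same in every subset. To compare levels between genes, each class was summed in TPM, a unit per transcript length, and each gene was taken as a share of its class. Gng12 made up 59.0% ± 3.85 of Gγ TPM in beta libraries, 21.4% ± 1.69 in alpha libraries and 23.2% ± 3.43 in delta libraries (SD, n = 3 each). Rgs4 made up 35.7% ± 1.52 of RGS TPM in beta libraries, 66.2% ± 1.72 in alpha libraries and 16.1% ± 1.21 in delta libraries. Rgs9 made up 9.17% ± 1.61 of RGS TPM in beta libraries, 4.26% ± 0.316 in alpha libraries and 34.0% ± 4.95 in delta libraries. The leading RGS gene was thus Rgs4 in beta and alpha libraries and Rgs9 in delta libraries. For all 4 classes the shares describe the libraries, with no test, since a share falls when another gene of its class rises.

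**Figure D1:**
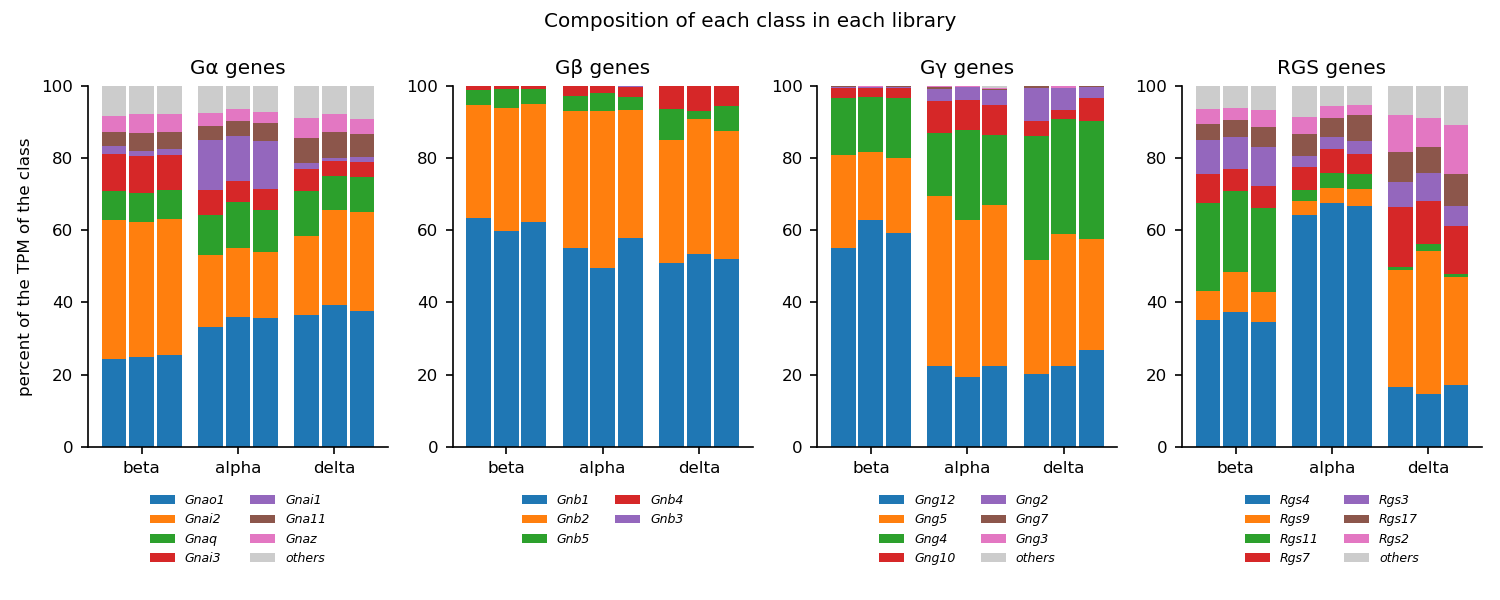
Share of the summed TPM (percent, y axis) of each gene within the analysed Gα, Gβ, Gγ and RGS genes, by subset (x axis). Each bar is 1 library, 3 per subset, with the smaller genes of a class summed as others. Gng12 takes on average 59.0% of the Gγ bars in beta libraries, and Rgs4 takes 66.2% of the RGS bars in alpha libraries.

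Over all members, calls were more frequent than among all tested genes. In beta over alpha, 10 tested members were higher, 9 were lower and 18 were not called, so that 51.4% were called at an adjusted p of 0.05, against 26.6% of all tested genes. In beta over delta, 7 were higher, 11 were lower and 19 were not called (48.6%), against 30.6% of all tested genes. In alpha over delta, 6 were higher, 11 were lower and 20 were not called (45.9%), against 24.3% of all tested genes. The median log2 fold change of the tested members was -0.17 for beta over alpha, -0.14 for beta over delta and -0.40 for alpha over delta, and over all tested genes it was -0.0187, -0.0234 and -0.0105. These medians were the same when members with a subset at or near 0 counts were set at their counting limits. Call rates depend on counts, and 26 of the 37 tested members averaged at least 10 CPM, as did 9344 of the 15896 tested genes. Of these members 61.5%, 50.0% and 57.7% were called for beta over alpha, beta over delta and alpha over delta, against 33.6%, 37.2% and 29.4% of these genes, a background chosen after seeing the data. Without beta replicate 2 and delta replicate 3, the members called were 8 higher and 8 lower for beta over alpha, 7 and 10 for beta over delta, and 6 and 11 for alpha over delta. The comparisons share libraries, so they are not independent of each other.

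**Figure D2:**
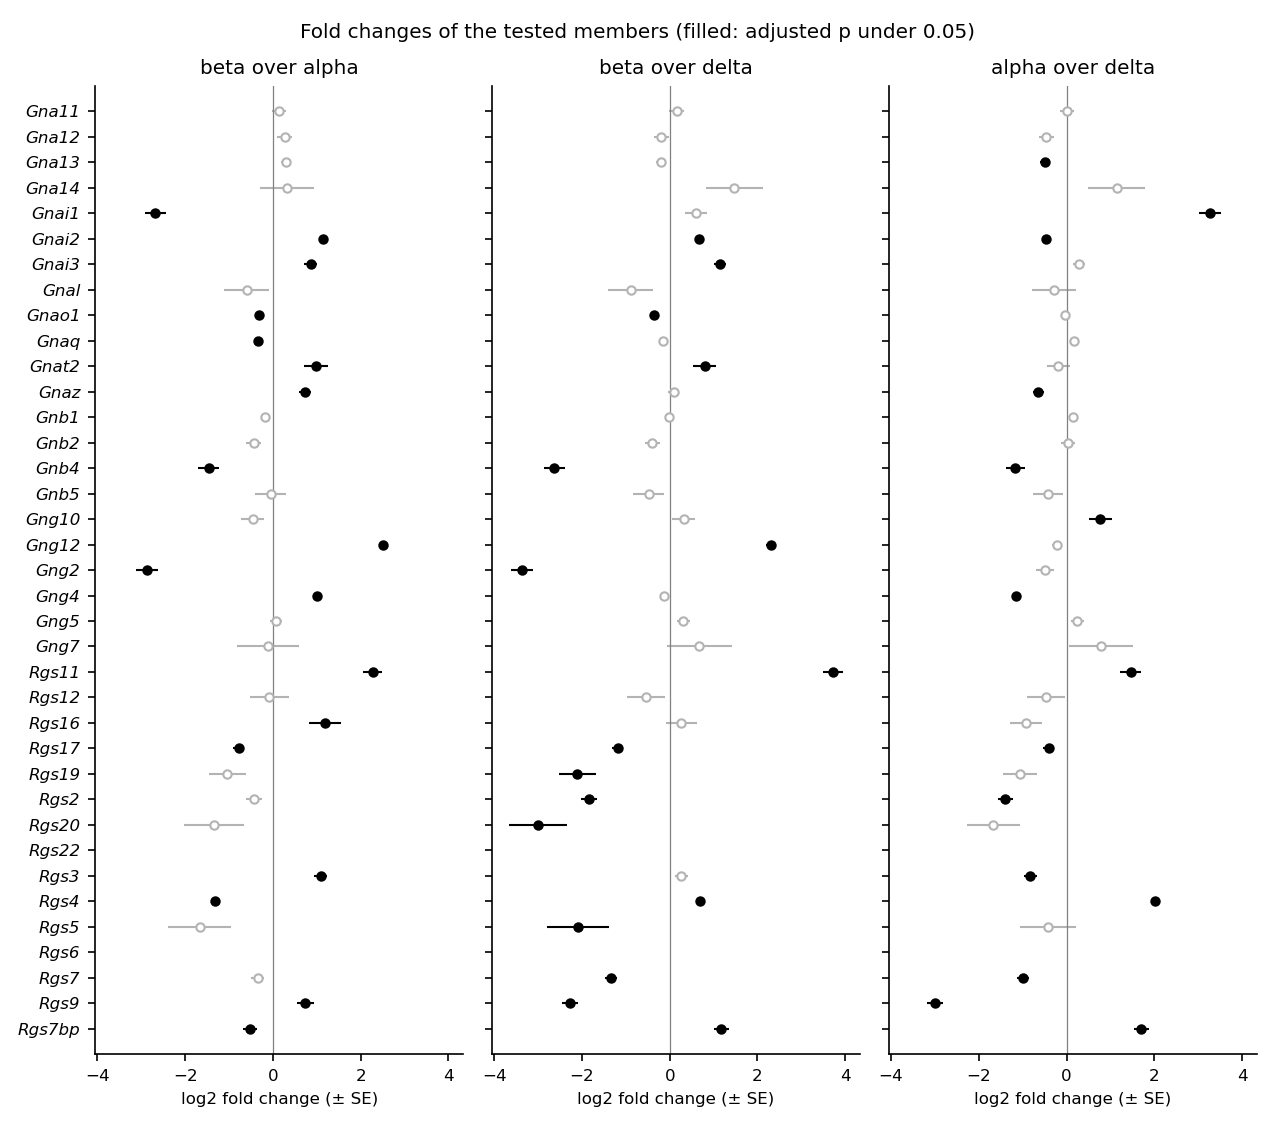
Log2 fold change ± SE (x axis) of the tested members (y axis) for beta over alpha, beta over delta and alpha over delta libraries; filled points have an adjusted p under 0.05 by edgeR's quasi-likelihood test. Rgs6 and Rgs22 are left blank because 1 or more subsets held 0 to 3 counts, and Rgs11 has the largest plotted rise, 3.73, for beta over delta.

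Among the Gα genes analysed, transcripts of the Gi/o/z family prevailed in all subsets, and the inhibitory subunit that was high differed. The 1 Gα gene left out is in none of the sums, shares or ranks of Gα genes given here. The Gi/o/z genes made up 79.5% ± 0.176 of Gα TPM in beta libraries, 76.8% ± 0.658 in alpha libraries and 74.1% ± 1.91 in delta libraries (SD, n = 3 each). Gnai2 and Gnai3 were higher in beta libraries than in both other subsets, whereas Gnai1 was highest in alpha libraries. Of the 12 tested Gα genes, 4 were higher and 3 lower for beta over alpha, 3 higher and 1 lower for beta over delta, and 1 higher and 3 lower for alpha over delta. Those called were 58.3% for beta over alpha, against 26.6% of all tested genes. For beta over delta and alpha over delta 33.3% were called, against 30.6% and 24.3% of all tested genes, so the share for beta over delta was near the background.

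Gnai1 (chr5:18265135-18360355, GRCm38, minus strand) encodes Gαi1, which inhibits adenylyl cyclase. It had 29.0, 20.0 and 26.9 CPM in beta libraries, 169, 150.2 and 168 CPM in alpha libraries and 19.3, 9.22 and 21.6 CPM in delta libraries. Every alpha library lay above every library of the other subsets. CPM here and below is after TMM scaling and sets 1 gene's levels in the subsets side by side. The log2 fold change was -2.68 (SE 0.24, adjusted p = 2.72e-06, edgeR) for beta over alpha and 3.27 (SE 0.24, adjusted p = 6.91e-07) for alpha over delta. For beta over delta it was 0.60 (SE 0.25, adjusted p = 0.09), and without delta replicate 3 it was 0.83 (adjusted p = 0.0257). In beta and delta libraries Gnai1 was at 15.6% and 10.3% of its alpha level, above the 0.440% and 4.90% of Gcg.

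Gnai2, encoding Gαi2, had the highest mean TPM of the analysed Gα genes in beta libraries. It had 280.2, 257 and 295 CPM in beta libraries, 130.0, 127 and 122 CPM in alpha libraries and 167, 175 and 182 CPM in delta libraries, with no overlap between subsets. Its log2 fold change was 1.13 (SE 0.09, adjusted p = 3.51e-08) for beta over alpha, 0.67 (SE 0.09, adjusted p = 1.51e-05) for beta over delta and -0.46 (SE 0.09, adjusted p = 0.000881) for alpha over delta. Within Gα TPM it held 37.9% in beta libraries, 19.1% in alpha libraries and 25.2% in delta libraries. On the log2(TPM + 1) scale with limma, alpha over delta was -0.23 (adjusted p = 0.634).

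Gnai3 had 146, 144 and 147 CPM in beta libraries, 90.1, 73.3 and 77.2 CPM in alpha libraries and 85.5, 55.9 and 56.2 CPM in delta libraries. Beta libraries lay above all others, and alpha and delta libraries overlapped. By edgeR, the log2 fold change was 0.86 (SE 0.14, adjusted p = 0.000206) for beta over alpha, 1.14 (SE 0.15, adjusted p = 1.02e-05) for beta over delta and 0.28 (SE 0.15, adjusted p = 0.18) for alpha over delta. Without delta replicate 1 the last value was 0.52 (adjusted p = 0.00195). On the log2(TPM + 1) scale with limma, beta over alpha was 0.75 (adjusted p = 0.0555).

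Gnao1 encodes Gαo, the main Gα of neurons, and it was abundant in all subsets. It had 356, 376 and 376 CPM in beta libraries, 441, 470.3 and 470.0 CPM in alpha libraries and 440.4, 526 and 453 CPM in delta libraries. Beta libraries were the lowest, and alpha and delta libraries overlapped. The fitted log2 fold change was -0.32 (SE 0.09, adjusted p = 0.0113) for beta over alpha, -0.36 (SE 0.09, adjusted p = 0.00441) for beta over delta and -0.04 (SE 0.09, adjusted p = 0.797) for alpha over delta. These small differences did not pass on the log2(TPM + 1) scale (adjusted p = 0.444 and 0.431 against alpha and delta), and without beta replicate 1 the value for beta over alpha was -0.29 (adjusted p = 0.0594). Per length, Gnao1 was the leading gene of the analysed Gα genes in alpha (79.1 ± 17.8 TPM) and delta libraries (76.5 ± 15.3 TPM). In beta libraries it followed Gnai2 (60.9 ± 17.5 TPM, against 92.8 ± 24.8 TPM for Gnai2).

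Gnaz, whose product Gαz is an inhibitory Gα that pertussis toxin does not modify, was lowest in alpha libraries. It averaged 77.2 ± 8.64 CPM in beta libraries, 46.5 ± 4.12 CPM in alpha libraries and 72.7 ± 9.64 CPM in delta libraries (SD, n = 3 each). It was higher for beta over alpha (log2 fold change 0.73, adjusted p = 0.000368) and lower for alpha over delta (-0.64, adjusted p = 0.00135), and beta over delta was 0.09 (adjusted p = 0.664). Neither call passed on the log2(TPM + 1) scale (adjusted p = 0.192 and 0.462).

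Of the Gq/11 family, which activates phospholipase C beta, Gnaq and Gna11 were the main genes. Gnaq had 187, 178 and 179.6 CPM in beta libraries, 229, 231 and 228 CPM in alpha libraries and 212, 205 and 190.3 CPM in delta libraries. On the log2 scale the fold change was -0.34 (SE 0.08, adjusted p = 0.00618) for beta over alpha, -0.16 (SE 0.08, adjusted p = 0.179) for beta over delta and 0.18 (SE 0.08, adjusted p = 0.145) for alpha over delta, and on the log2(TPM + 1) scale beta over alpha was -0.42 (adjusted p = 0.375). Gna11 averaged 57.3, 52.1 and 51.4 CPM in beta, alpha and delta libraries and was called in no comparison. Gna14 averaged 2.31, 1.86 and 0.824 CPM in beta, alpha and delta libraries and was not called either. Gna15, a member of the family known from blood cells, had 1 count in beta libraries in all, 0 counts in every alpha library and 0 to 7 counts per delta library.

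Gna12 and Gna13 form a family of their own among the Gα genes. Gna12 averaged 25.9, 21.4 and 29.5 CPM in beta, alpha and delta libraries and was called in no comparison with all libraries. Gna13 averaged 97.4 CPM in beta libraries, 78.9 CPM in alpha libraries and 111 CPM in delta libraries, and was lower for alpha over delta (log2 fold change -0.50, SE 0.11, adjusted p = 0.00367). That value was -0.23 (adjusted p = 0.658) on the log2(TPM + 1) scale. Without delta replicate 1, Gna12 was lower for alpha over delta (-0.53, adjusted p = 0.0262) and Gna13 was higher for beta over alpha (0.31, adjusted p = 0.0411). Gnal, encoding the stimulatory subunit of olfactory neurons, averaged 2.95, 4.51 and 5.53 CPM in beta, alpha and delta libraries, and was called in no comparison.

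Gnat2, the cone transducin gene, had 12.7, 11.7 and 14.9 CPM in beta libraries, 8.20, 5.92 and 5.64 CPM in alpha libraries and 7.37, 6.65 and 8.48 CPM in delta libraries. Beta libraries lay above the others. As a log2 fold change, the difference was 0.98 (SE 0.26, adjusted p = 0.00967) for beta over alpha and 0.80 (SE 0.26, adjusted p = 0.0285) for beta over delta. Both calls were fragile. Beta over alpha had an adjusted p of 0.0602 without beta replicate 3, and beta over delta had 0.0762, 0.0562 and 0.125 without beta replicates 1, 2 and 3 and 0.0668 without delta replicate 2. Gnat2 ends 5.8 kb from the end of Gnai3 on chromosome 3, on the opposite strand, and Gnai3 was likewise highest in beta libraries. The rod gene Gnat1, which lies 39.1 kb from Gnai2, had 0 counts in all libraries. The taste gene Gnat3 had 0 counts in every beta library, 2 to 7 per alpha library and 0 to 4 per delta library.

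Of the 4 tested Gβ genes, Gnb4 was called in all 3 comparisons and the others in none. The share called was thus 25% in each comparison. Of all tested genes, 26.6% were called for beta over alpha, 30.6% for beta over delta and 24.3% for alpha over delta. The Gβ share was therefore no more than near the background. Gnb1, the leading Gβ gene per length, averaged 49.4 ± 15.4 TPM in beta libraries, 50.7 ± 7.61 TPM in alpha libraries and 37.9 ± 9.08 TPM in delta libraries. It had 199, 213 and 198 CPM in beta libraries, 250.3, 221 and 215 CPM in alpha libraries and 201, 218 and 199 CPM in delta libraries. Its log2 fold changes were -0.17 (SE 0.09, adjusted p = 0.197) for beta over alpha, -0.02 (SE 0.09, adjusted p = 0.907) for beta over delta and 0.15 (SE 0.09, adjusted p = 0.259) for alpha over delta.

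Gnb2 had 35.1, 41.8 and 37.8 CPM in beta libraries, 53.9, 59.9 and 40.8 CPM in alpha libraries and 41.2, 62.1 and 47.7 CPM in delta libraries. Its fitted log2 fold change was -0.43 (SE 0.17, adjusted p = 0.0703) for beta over alpha and -0.40 (SE 0.17, adjusted p = 0.0895) for beta over delta. These missed the threshold narrowly: beta over alpha had an adjusted p of 0.0263 without alpha replicate 3, 0.0362 without delta replicate 1 and 0.0361 without delta replicate 2, and beta over delta had 0.0236 without delta replicate 1. For alpha over delta the value was 0.04 (SE 0.17, adjusted p = 0.908). With upper-quartile factors, which moved the median of all genes for beta over alpha to -0.105, Gnb1 was called lower for beta over alpha (adjusted p = 0.0426), and Gnb2 was called lower for beta over alpha (0.0287) and for beta over delta (0.0477).

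Gnb4 (chr3:32580332-32616585, GRCm38, minus strand) encodes a less common Gβ. It had 7.83, 5.83 and 4.79 CPM in beta libraries, 19.1, 15.7 and 16.5 CPM in alpha libraries and 28.1, 48.2 and 39.3 CPM in delta libraries. The subsets did not overlap. The log2 fold change was -1.46 (SE 0.24, adjusted p = 0.000165) for beta over alpha, -2.63 (SE 0.24, adjusted p = 1.71e-07) for beta over delta and -1.17 (SE 0.22, adjusted p = 0.000614) for alpha over delta. The enrichment in delta libraries was lost without delta replicate 2, which had the highest value, and on both TPM scales, where alpha over delta was -0.70 and -0.90 (adjusted p = 0.111 and 0.171). Its share of Gβ TPM was 0.908% ± 0.166 in beta libraries, 2.57% ± 0.574 in alpha libraries and 6.28% ± 0.697 in delta libraries. Gnb3, which pairs with Gnat3 and Gng13 in taste cells, had 3 counts in all libraries together, all of them in alpha libraries.

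Gng12 (chr6:66896397-67021350, GRCm38, plus strand) had the highest TPM of the Gγ genes in beta libraries. Its promoter, printed above, held neither motif. It had 855, 933 and 789.7 CPM in beta libraries, 172, 132 and 146 CPM in alpha libraries and 172, 167 and 185 CPM in delta libraries. All beta libraries lay far above the rest, and alpha and delta libraries overlapped. Its log2 fold change was 2.52 (SE 0.11, adjusted p = 1.55e-11) for beta over alpha, 2.30 (SE 0.11, adjusted p = 3.68e-11) for beta over delta and -0.22 (SE 0.10, adjusted p = 0.139) for alpha over delta. Without alpha replicate 1 the last value was -0.31 (adjusted p = 0.0498). In alpha libraries Gng12 was at 17.5% of its beta level, where Ins1 and Ins2 were at 8.25% and 8.96%. In delta libraries it was at 20.3%, where Ins1 and Ins2 were at 0.886% and 0.737%.

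Gng2 showed the opposite order, with the lowest level in beta libraries. It had 4.75, 4.63 and 2.81 CPM in beta libraries, 28.3, 29.6 and 31.7 CPM in alpha libraries and 49.0, 48.8 and 28.8 CPM in delta libraries. Every beta library lay below every other library, and delta replicate 3 lay within the alpha range. By edgeR, the log2 fold change was -2.86 (SE 0.25, adjusted p = 1.14e-07) for beta over alpha, -3.36 (SE 0.25, adjusted p = 1.38e-08) for beta over delta and -0.50 (SE 0.21, adjusted p = 0.0919) for alpha over delta. Without delta replicate 3, the library with the most acinar marker counts, alpha over delta was -0.71 (adjusted p = 0.00995).

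Gng4 was lowest in alpha libraries. It had 233, 246 and 232 CPM in beta libraries, 123, 110.2 and 119 CPM in alpha libraries and 273, 259 and 251 CPM in delta libraries, with no overlap. The fitted log2 fold change was 1.02 (SE 0.09, adjusted p = 1.04e-07) for beta over alpha, -0.14 (SE 0.09, adjusted p = 0.254) for beta over delta and -1.16 (SE 0.09, adjusted p = 2.61e-08) for alpha over delta. On the log2(TPM + 1) scale alpha over delta was -0.67 (adjusted p = 0.0725).

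Gng5 was called in no comparison. It had 60.9, 45.1 and 43.9 CPM in beta libraries, 52.2, 48.2 and 42.6 CPM in alpha libraries and 40.6, 42.5 and 37.9 CPM in delta libraries. The log2 fold changes were 0.07 (SE 0.15, adjusted p = 0.793), 0.31 (SE 0.15, adjusted p = 0.123) and 0.24 (SE 0.15, adjusted p = 0.262) for beta over alpha, beta over delta and alpha over delta. Its transcript is short. Per length it reached 56.7 ± 13.1 TPM in beta libraries, 53.9 ± 5.38 TPM in alpha libraries and 39.9 ± 9.05 TPM in delta libraries. Gng5 was thus the leading Gγ gene of alpha libraries, and in delta libraries it was about level with Gng4 (39.4 ± 5.36 TPM).

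Gng10 had 13.1, 12.7 and 13 CPM in beta libraries, 21, 17.5 and 14.7 CPM in alpha libraries and 9.70, 6.50 and 14.8 CPM in delta libraries. It was higher for alpha over delta (log2 fold change 0.77, SE 0.26, adjusted p = 0.0406), although the highest delta library lay above the lowest alpha library. That call was lost without alpha replicate 1 (adjusted p = 0.161) or 2 (0.0844), without delta replicate 1 (0.0661) or 2 (0.129), and without beta replicate 1 (0.0567), 2 (0.0600) or 3 (0.0560). Beta over alpha and beta over delta were -0.45 and 0.32 (adjusted p = 0.234 and 0.412). Gng7 averaged 1.47, 1.58 and 0.918 CPM in beta, alpha and delta libraries and was not called. The other Gγ genes were at or near 0: Gng3 had 2 to 10 counts per library, Gng11 and Gng13 had 0 to 4, and Gng8, Gngt1 and Gngt2 had 0 in all libraries. With 0 of 65815603 counts, a level of up to 0.0456 CPM over all libraries is allowed, for counting error only.

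Of the 14 tested RGS genes, 4 were higher and 3 lower for beta over alpha, 2 higher and 8 lower for beta over delta, and 3 higher and 6 lower for alpha over delta. The RGS genes called were 50% for beta over alpha, 71.4% for beta over delta and 64.3% for alpha over delta, against 26.6%, 30.6% and 24.3% of all tested genes. Over all tested genes, 15.4% were higher and 15.3% lower for beta over delta, and 11% higher and 13.3% lower for alpha over delta. The R4 family, small RGS proteins that act on Gi/o and Gq, held 52.1% ± 0.526 of RGS TPM in beta libraries, 74.5% ± 1.06 in alpha libraries and 35.5% ± 3.15 in delta libraries (SD, n = 3 each). The R7 family, which works in a complex with Gβ5 on Gi/o, held 39.2% ± 1.41 in beta libraries, 15% ± 1.29 in alpha libraries and 49.1% ± 4.66 in delta libraries. R7 transcripts were led by Rgs11 in beta libraries, Rgs7 in alpha libraries and Rgs9 in delta libraries.

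**Figure D3:**
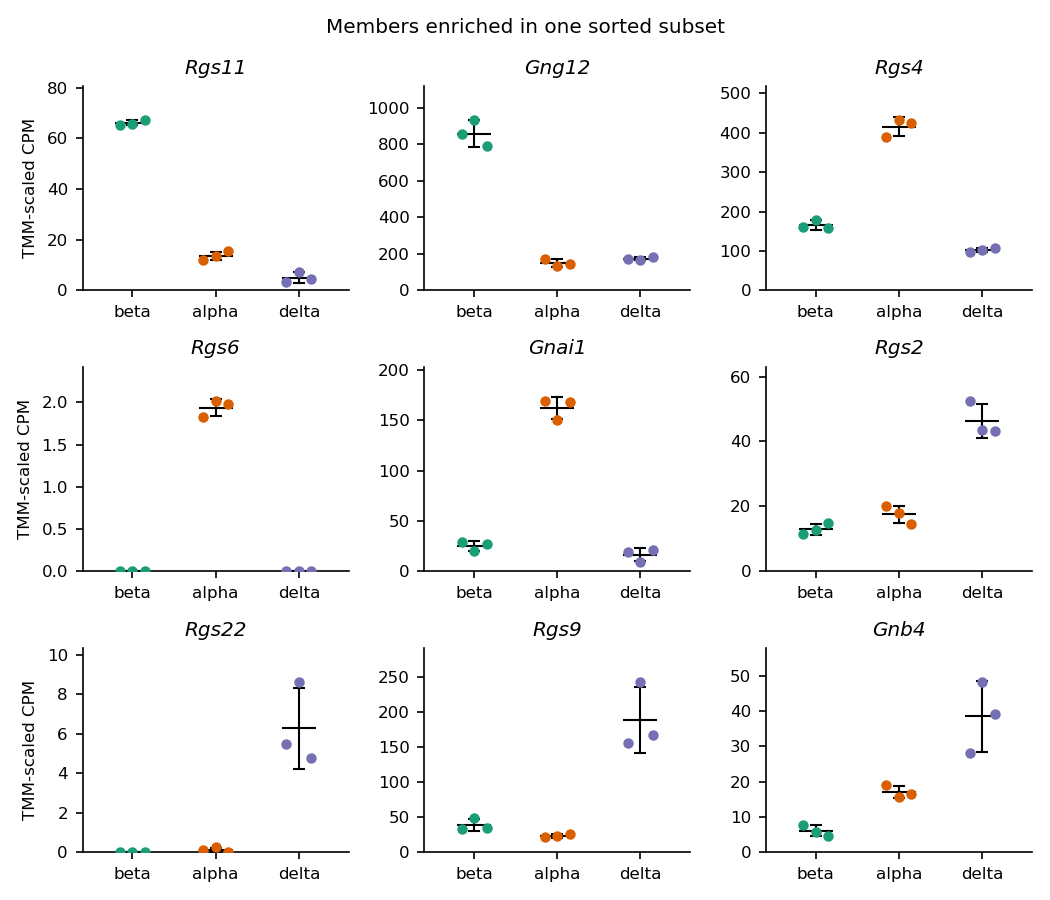
TMM-scaled CPM (y axis, linear from 0, its own range in each panel) of the 9 members enriched in a single subset, in beta, alpha and delta libraries (x axis); points are libraries, and lines with bars are the mean ± SD of 3. Gng12 reaches 855, 933 and 789.7 CPM in beta libraries, while Rgs6 stays at 0 outside alpha libraries.

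Rgs4 (chr1:169741477-169747642, GRCm38, minus strand), of the R4 family, was the most abundant RGS gene over all libraries. It had 159.9, 179 and 158 CPM in beta libraries, 389, 432 and 426 CPM in alpha libraries and 96.8, 102 and 108 CPM in delta libraries. The subsets did not overlap. On the log2 scale the fold change was -1.33 (SE 0.09, adjusted p = 6.51e-09) for beta over alpha, 0.70 (SE 0.09, adjusted p = 1.41e-05) for beta over delta and 2.02 (SE 0.09, adjusted p = 6.33e-11) for alpha over delta. Rgs4 and Rgs5 are also known from pericytes and smooth muscle. The 9 mesenchymal and pericyte markers summed to 2.04 to 4.03 CPM without TMM scaling in beta libraries and 0.883 to 5.44 in delta libraries. In alpha replicates 1, 2 and 3 they summed to 10.7, 48.7 and 18.3 CPM (96, 377 and 122 counts). Of these markers, Notch3 went the other way, with 15, 15 and 19 counts in beta libraries and 1, 1 and 8 in alpha libraries. Col1a2 had 87, 164 and 61 counts in alpha libraries, Col1a1 had 0, 116 and 32, and Cspg4 had 2, 1 and 2. Col3a1 had 0, 41 and 6 counts in alpha libraries, Pdgfra 0, 24 and 2, and Pdgfrb 0, 16 and 3. Dcn had 4, 12 and 5 counts in alpha libraries, and Acta2 had 2, 2 and 3. Rgs4 had 389, 432 and 426 CPM in the same libraries. The part of such cells in the result was not tested.

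Rgs5 ends 45.7 kb from the end of Rgs4 on chromosome 1, on the opposite strand, and was low throughout. It averaged 0.834 ± 0.279 CPM in beta libraries, 2.71 ± 1.91 CPM in alpha libraries and 3.64 ± 2.61 CPM in delta libraries, with widely spread alpha and delta libraries. It was lower for beta over delta (log2 fold change -2.09, SE 0.71, adjusted p = 0.0343) and was not called in the other comparisons. That call was lost without beta replicate 1 (adjusted p = 0.0614), 2 (0.107) or 3 (0.112) and without delta replicate 3 (-1.34, adjusted p = 0.212), the library with the most acinar marker counts. It was lost on both TPM scales as well, and without alpha replicate 3 beta over alpha was -2.08 (adjusted p = 0.0428).

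Rgs2 (chr1:143999338-144004161, GRCm38, minus strand) is known for its preference for Gq. It had 11.6, 12.7 and 14.9 CPM in beta libraries, 20.1, 18 and 14.7 CPM in alpha libraries and 52.4, 43.4 and 43.2 CPM in delta libraries. All delta libraries lay above the others, and beta and alpha libraries overlapped. As a log2 fold change, the difference was -0.44 (SE 0.18, adjusted p = 0.0919) for beta over alpha, -1.83 (SE 0.18, adjusted p = 4.41e-07) for beta over delta and -1.39 (SE 0.17, adjusted p = 1.01e-05) for alpha over delta. With upper-quartile factors beta over alpha was -0.52 (adjusted p = 0.0406). Rgs2 is an immediate early gene in many cells. Its promoter, printed above, holds 2 of the half-sites, as does that of Rgs4, which was enriched in alpha libraries. Whether either property bears on the Rgs2 level was not tested.

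Rgs3 was lowest in alpha libraries. It had 42.1, 39.9 and 46.4 CPM in beta libraries, 18.7, 21.4 and 20.2 CPM in alpha libraries and 38.6, 33.4 and 34.8 CPM in delta libraries. Its fitted log2 fold change was 1.09 (SE 0.15, adjusted p = 1.86e-05) for beta over alpha, 0.26 (SE 0.14, adjusted p = 0.183) for beta over delta and -0.83 (SE 0.15, adjusted p = 0.000389) for alpha over delta. On the log2(TPM + 1) scale alpha over delta was -0.64 (adjusted p = 0.177).

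Rgs16, known to respond to glucose in islets, had 10.5, 10.8 and 6.27 CPM in beta libraries, 3.99, 5.29 and 2.82 CPM in alpha libraries and 4.92, 8.92 and 9.12 CPM in delta libraries. It was higher for beta over alpha (log2 fold change 1.18 with SE 0.36, adjusted p = 0.0208), and the values were 0.27 (adjusted p = 0.618) for beta over delta and -0.92 (adjusted p = 0.0754) for alpha over delta. The call for beta over alpha was lost without beta replicate 1 (adjusted p = 0.0921) or 2 (0.0981) and without alpha replicate 1 (0.0632) or 3 (0.0921). Alpha over delta was -1.15 (adjusted p = 0.0172) without delta replicate 1. The other R4 genes were rare. Rgs1 had 0 counts in every beta library, 0 to 3 per alpha library and 1 to 15 per delta library, and Rgs8 had 0 to 2 per beta library, 3 to 17 per alpha library and 2 to 6 per delta library. Rgs13 had 0 to 7 counts per library, and Rgs18 and Rgs21 had 0 in all.

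In the R7 family, Rgs11 was highest in beta libraries, Rgs9 and Rgs7 in delta libraries, and Rgs6, at a low level, in alpha libraries. Rgs11 (chr17:26202951-26211324, GRCm38, plus strand), known from retinal bipolar cells, had 65.4, 65.8 and 67.2 CPM in beta libraries, 12.2, 13.6 and 15.4 CPM in alpha libraries and 3.28, 7.41 and 4.37 CPM in delta libraries. The subsets did not overlap. The log2 fold change was 2.27 (SE 0.21, adjusted p = 1.88e-07) for beta over alpha, 3.73 (SE 0.23, adjusted p = 1.32e-09) for beta over delta and 1.46 (SE 0.23, adjusted p = 0.000144) for alpha over delta. In alpha and delta libraries it was at 20.8% and 7.59% of its beta level, where Ins1 was at 8.25% and 0.886%. Rgs11 overlaps Arhgdig on the other strand. No source used here gives the strand setting of the counting, so reads of these genes cannot be told apart.

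Rgs9 (chr11:109225355-109298129, GRCm38, minus strand), known from photoreceptors and striatal neurons, was the leading RGS gene of delta libraries. It had 33.8, 49.7 and 35.2 CPM in beta libraries, 21.5, 22.9 and 26.5 CPM in alpha libraries and 156, 243 and 168 CPM in delta libraries. All delta libraries lay above all others, and beta libraries lay above alpha libraries. Its log2 fold change was 0.74 (SE 0.19, adjusted p = 0.00817) for beta over alpha, -2.26 (SE 0.18, adjusted p = 1.73e-07) for beta over delta and -3.0 (SE 0.19, adjusted p = 1.63e-08) for alpha over delta. The smaller difference, beta over alpha, had an adjusted p of 0.286 on the log2(TPM + 1) scale and 0.0601 without beta replicate 2 and delta replicate 3. In beta and alpha libraries Rgs9 was at 20.9% and 12.5% of its delta level, where Sst was at 0.00911% and 0.219%.

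Rgs7 was also highest in delta libraries, by a smaller factor. It had 30.0, 22.8 and 27.6 CPM in beta libraries, 32.7, 37.0 and 33.0 CPM in alpha libraries and 63.0, 73.2 and 68.1 CPM in delta libraries. By edgeR, the log2 fold change was -0.35 (SE 0.14, adjusted p = 0.0816) for beta over alpha, -1.34 (SE 0.14, adjusted p = 9.56e-07) for beta over delta and -0.99 (SE 0.14, adjusted p = 3.24e-05) for alpha over delta. It lay just under the 2-fold limit for enrichment against alpha libraries and passed it without alpha replicate 2 or without delta replicate 1. With upper-quartile factors beta over alpha was -0.43 (adjusted p = 0.0322).

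Rgs6 (chr12:82588292-83162056, GRCm38, plus strand) was found in alpha libraries only, at a low level. It had 0 counts in every beta library, 16, 16 and 14 counts in alpha libraries and 0 counts in every delta library. Against a floor of 3 counts over a subset, it was at least 12.7-fold lower in beta than in alpha libraries and at least 14.0-fold higher in alpha than in delta libraries. Its enrichment in alpha libraries passed the test (adjusted p = 0.00859), and was lost without beta replicate 1 and on the log2(TPM + 1) scale; a stricter count filter left it untested.

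Gβ5, encoded by Gnb5, is the obligate partner of the R7 proteins, and Rgs7bp and Rgs9bp anchor them to membranes. Gnb5 had 9.89, 13 and 9.74 CPM in beta libraries, 11.6, 13 and 9.17 CPM in alpha libraries and 24.7, 6.96 and 13.7 CPM in delta libraries. Delta libraries spread widely, and no comparison was called (adjusted p = 0.939 for beta over alpha, 0.329 for beta over delta and 0.415 for alpha over delta). Without delta replicate 2, beta over delta was -0.82 (adjusted p = 0.0316). Rgs7bp, in contrast, was lowest in delta libraries. It had 37.9, 38.4 and 34.2 CPM in beta libraries, 56.8, 61.2 and 40.6 CPM in alpha libraries and 14.5, 18.3 and 16.2 CPM in delta libraries. The subsets did not overlap. The fitted log2 fold change was -0.52 (SE 0.16, adjusted p = 0.0243) for beta over alpha, 1.17 (SE 0.17, adjusted p = 4.57e-05) for beta over delta and 1.70 (SE 0.17, adjusted p = 8.62e-07) for alpha over delta. Only the first was fragile: its adjusted p was 0.0648, 0.0550 and 0.107 without beta replicates 1, 2 and 3, and 0.0953 and 0.134 without alpha replicates 1 and 2. Rgs9bp had 0 to 5 counts per library.

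The orphan receptors Gpr158 and Gpr179, which bind R7 complexes at the membrane and are no members here, went in opposite directions. Gpr158 had 292, 298 and 265 CPM in beta libraries, 21, 14 and 27.4 CPM in alpha libraries and 6.69, 9.07 and 9.64 CPM in delta libraries. On the log2 scale the fold change was 3.78 (SE 0.19, adjusted p = 1.61e-09) for beta over alpha, 5.07 (SE 0.21, adjusted p = 1.64e-10) for beta over delta and 1.29 (SE 0.21, adjusted p = 0.000359) for alpha over delta. Gpr179 averaged 0.583 ± 0.640 CPM in beta libraries, 3.29 ± 2.21 CPM in alpha libraries and 18.1 ± 6.07 CPM in delta libraries, and was lower for beta over alpha, beta over delta and alpha over delta (log2 fold changes -2.52, -4.96 and -2.45, adjusted p = 0.0137, 2.98e-05 and 0.0024).

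**Figure D4:**
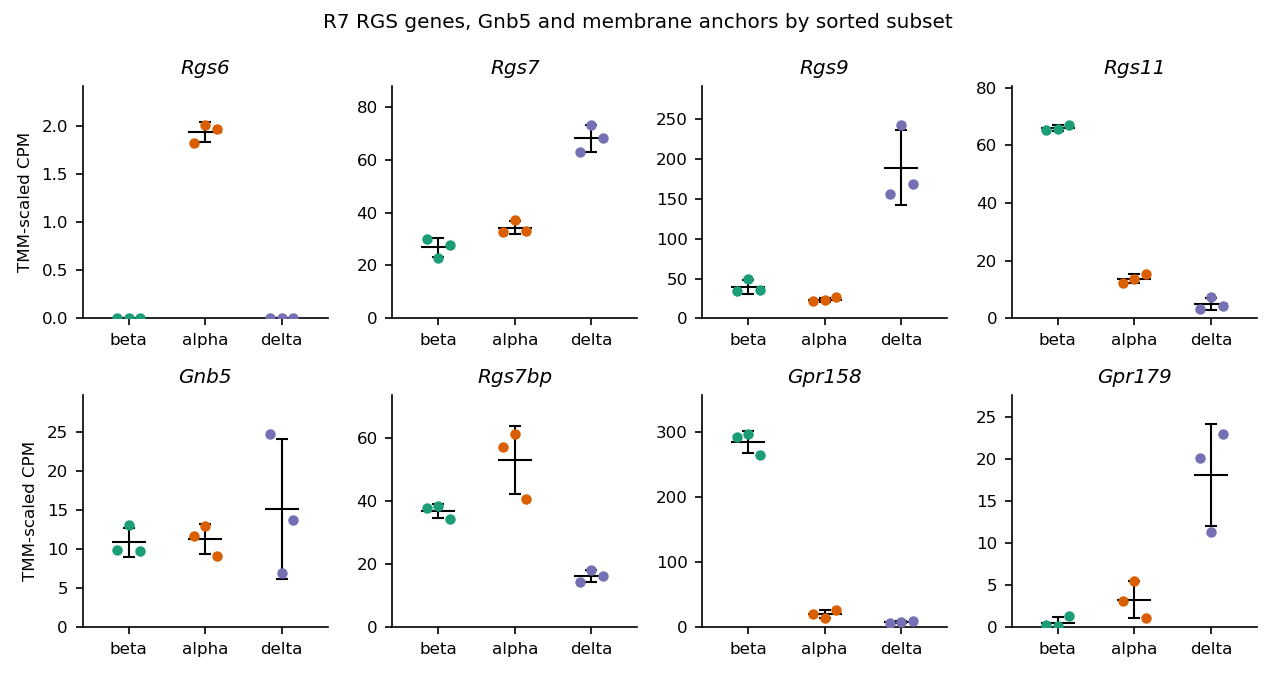
TMM-scaled CPM (y axis, its own range in each panel) of R7 RGS genes, Gnb5 and membrane anchors in beta, alpha and delta libraries (x axis); points are libraries, and lines with bars are the mean ± SD of 3. Rgs11 and Gpr158 are highest in beta libraries and Rgs9, Rgs7 and Gpr179 in delta libraries.

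The RZ family, which acts on Gαz and Gi/o, held 6.52% ± 1.51 of RGS TPM in beta libraries, 8.61% ± 1.05 in alpha libraries and 12.6% ± 1.37 in delta libraries. Rgs17 was its main gene, with 59.7, 69.2 and 78.2 CPM in beta libraries, 109.7, 107 and 139 CPM in alpha libraries and 141, 159 and 170.1 CPM in delta libraries. The subsets did not overlap. As a log2 fold change, the difference was -0.78 (SE 0.13, adjusted p = 0.000157) for beta over alpha, -1.18 (SE 0.13, adjusted p = 1.44e-06) for beta over delta and -0.40 (SE 0.13, adjusted p = 0.027) for alpha over delta. The last call was lost without alpha replicate 1 (adjusted p = 0.13) or 2 (0.141) and without delta replicate 2 (0.0543) or 3 (0.108), and beta over alpha had an adjusted p of 0.133 on the log2(TPM + 1) scale.

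Rgs19 had 2.05, 1.03 and 1.82 CPM in beta libraries, 4.22, 3.15 and 2.82 CPM in alpha libraries and 6.15, 8.77 and 6.55 CPM in delta libraries. It was lower for beta over delta (log2 fold change -2.10, SE 0.42, adjusted p = 0.00086), with a value of -0.78 (adjusted p = 0.109) on the log2(TPM + 1) scale. Beta over alpha was -1.04 (adjusted p = 0.0863) and alpha over delta -1.07 (adjusted p = 0.0565), which was called without delta replicate 1 (-1.16, adjusted p = 0.0426). Rgs20 had 0.770, 0.171 and 1.16 CPM in beta libraries, 1.03, 3.27 and 1.13 CPM in alpha libraries and 8.06, 3.33 and 5.91 CPM in delta libraries. It was lower for beta over delta (log2 fold change -3.0, SE 0.67, adjusted p = 0.00213). For alpha over delta it was -1.66 (SE 0.60, adjusted p = 0.0515), and the call was gained without alpha replicate 2 (-2.40, adjusted p = 0.023), without beta replicate 2 (-1.67, 0.0463) or without delta replicate 2 (-1.94, 0.0288).

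The R12 family was rare. Rgs12 averaged 3.17, 3.37 and 4.63 CPM in beta, alpha and delta libraries and was not called, Rgs10 had 2 to 15 counts per library, and Rgs14 had 0 in all. Rgs22 (chr15:36009479-36140400, GRCm38, minus strand), which belongs to none of these families and is known from testis, was found almost only in delta libraries. It had 0 counts in every beta library, 1, 2 and 0 counts in alpha libraries and 40, 57 and 37 counts in delta libraries. It was at least 40.5-fold lower in beta than in delta libraries against a floor of 3 counts over a subset, and its level in delta libraries was 49.0 times that in alpha libraries, with an exact 95% counting interval of 16.4 to 240. Its enrichment in delta libraries had an adjusted p of 0.000229.

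Several members lie beside each other in the genome. Of the 55 members, 11 are on chromosome 1, and all 11 are RGS genes. Neighbours often differed in level. Rgs4 had 15340 counts over all libraries and Rgs5 had 164, Gnaq had 13439 and its neighbour Gna14 had 107 at a distance of 48.3 kb, and Gna11 had 3478 and its neighbour Gna15 had 11 at 4.5 kb. Rgs2, Rgs13 and Rgs1 form a row on chromosome 1 with 1684, 13 and 25 counts.

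Genes whose products act on or with G proteins were counted from lists of 37 genes, of which 30 were tested. For beta over alpha 8 were higher and 7 lower, for beta over delta 6 were higher and 9 lower, and for alpha over delta 7 were higher and 10 lower. Those called were 50%, 50% and 56.7% of the 30, against 26.6%, 30.6% and 24.3% of all tested genes, which are also the shares behind the smaller lists that follow. The median log2 fold change of the tested partners was 0.0209 for beta over alpha, -0.22 for beta over delta and -0.22 for alpha over delta.

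Among receptor kinases and arrestins, which end receptor coupling, 2 of 7 were higher and 0 lower for beta over alpha, 3 higher and 1 lower for beta over delta, and 2 higher and 1 lower for alpha over delta. Grk5, a receptor kinase, had 108, 113 and 118 CPM in beta libraries, 31.0, 35.0 and 36.0 CPM in alpha libraries and 7.37, 11.8 and 11.4 CPM in delta libraries. Its fitted log2 fold change was 1.73 (SE 0.15, adjusted p = 7.95e-08), 3.47 (SE 0.16, adjusted p = 4.58e-11) and 1.74 (SE 0.16, adjusted p = 3.40e-07) for beta over alpha, beta over delta and alpha over delta. Arrb1, the gene of beta-arrestin 1, averaged 1.06 ± 0.205 CPM in beta libraries, 1.11 ± 0.605 CPM in alpha libraries and 13.3 ± 1.28 CPM in delta libraries, and was lower for alpha over delta (log2 fold change -3.58, SE 0.42, adjusted p = 4.65e-06).

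Among 9 tested exchange factors, GoLoco proteins and chaperones, 3 were higher and 2 lower for beta over alpha, 2 higher and 1 lower for beta over delta, and 2 higher and 2 lower for alpha over delta. Ccdc88c, which encodes an exchange factor for Gαi, averaged 1.90 ± 0.290 CPM in beta libraries, 37.3 ± 1.13 CPM in alpha libraries and 52.4 ± 1.65 CPM in delta libraries. It was lower for beta over alpha (log2 fold change -4.29 with SE 0.19, adjusted p = 3.02e-11) and for beta over delta (-4.78, SE 0.19, adjusted p = 6.12e-12). Gpsm1, whose GoLoco motifs hold Gαi in its GDP form, averaged 41.9 ± 1.28 CPM in beta libraries, 12.6 ± 2.14 CPM in alpha libraries and 15.3 ± 2.33 CPM in delta libraries, and was higher for beta over alpha (log2 fold change 1.73, SE 0.18, adjusted p = 1.11e-06). Rasd1, a Ras-like protein that acts on Gi, averaged 29.4 ± 11.1 CPM in beta libraries, 11.2 ± 0.938 CPM in alpha libraries and 2.79 ± 0.579 CPM in delta libraries. It was higher for beta over delta (log2 fold change 3.39, SE 0.30, adjusted p = 1.11e-07) and for alpha over delta (1.99, SE 0.30, adjusted p = 7.96e-05).

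Among 12 tested effectors and their partners, 2 were higher and 4 lower for beta over alpha, 0 higher and 6 lower for beta over delta, and 2 higher and 6 lower for alpha over delta. Kcnj3 and Kcnj6 encode subunits of the potassium channel that free Gβγ opens. Kcnj3 had 6, 0 and 0 counts in beta libraries, 636, 525 and 354 counts in alpha libraries and 72, 81 and 77 counts in delta libraries. It was lower for beta over alpha (log2 fold change -7.62 with SE 0.44, adjusted p = 2.33e-09) and for beta over delta (-5.06, SE 0.49, adjusted p = 8.44e-07), and higher for alpha over delta (2.56, SE 0.27, adjusted p = 3.08e-06). Kcnj6 averaged 15.9 ± 1.60 CPM in beta libraries, 47.2 ± 2.76 CPM in alpha libraries and 28.0 ± 3.88 CPM in delta libraries, and was lower for beta over alpha (log2 fold change -1.57, SE 0.16, adjusted p = 8.90e-07). Plcb4, a phospholipase C beta driven by Gq, averaged 46.2 ± 3.31 CPM in beta libraries, 58.1 ± 4.15 CPM in alpha libraries and 123 ± 9.76 CPM in delta libraries. It was lower for beta over delta (log2 fold change -1.42, SE 0.11, adjusted p = 3.78e-08) and for alpha over delta (-1.09, SE 0.11, adjusted p = 1.04e-06). Kctd8, an auxiliary subunit of the GABA-B receptor, averaged 9.25 ± 1.99 CPM in beta libraries, 2.32 ± 0.725 CPM in alpha libraries and 36.3 ± 4.36 CPM in delta libraries, and was lower for alpha over delta (log2 fold change -3.96, SE 0.26, adjusted p = 5.08e-09).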

How the data were processed

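RNA was primed with random primers, made into strand-specific libraries with the NuGEN Ovation Solo kit and sequenced on a NextSeq instrument, per the labels' protocols. The submitters' processing notes name STAR 2.5.2b, RSEM without a version, DESeq2 1.22.1, R 3.5.1 and build GRCm38.p6. The authors deposited RSEM expected counts, which share reads that match several genes and were not whole for 6.94% to 8.66% of genes per library (tolerance 0.005). The deposited TPM values, scaled by the authors to transcript length and library, served for levels between genes. A normalised table and FPKM were not used. All 55536 gene identifiers matched GENCODE M21.

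Expected counts were rounded and fitted over all 9 libraries, 3 per subset, with edgeR 4.0.16 in R 4.3.3: filterByExpr (15896 genes), TMM factors, a robust quasi-likelihood fit with 1 coefficient per subset, 6 residual degrees of freedom and a common biological coefficient of variation of 0.212. Tests were 2-sided with Benjamini-Hochberg adjustment at 0.05 over all tested genes. Enrichment took the larger raw p of the 2 differences, adjusted over all genes, with both log2 fold changes at least 1. Alternatives were other size factors, no or a stricter filter (10 counts in 3 libraries), DESeq2 1.42.0, limma 3.58.1 on log2(TPM + 1) and log2(TPM + 0.1), whose fold changes understate those of low genes, a replicate block, and leaving out libraries. Full values are given for the 6 largest rises and falls per comparison with at least 5 CPM, the 3 highest by TPM per class and enriched members, 28 in all, and for the 3 partners with the smallest p in each direction. Gpr179, a listed anchor outside that rule, was added after its values were seen. Promoters are from RefSeq. Members and lists were chosen with earlier results of these data known. Counting limits cover counting error only.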

Additional observations from a re-analysis of the deposited data

How the results depend on the processing

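No called value of a tested member changed direction under any alternative run, and 51 of 1992 values changed sign where neither fit made a call. On the log2(TPM + 1) scale with limma, the members called fell to 5 higher and 4 lower for beta over alpha and 4 lower for alpha over delta; on the log2(TPM + 0.1) scale these were 5, 5 and 4. The cause was not tested. Leaving out 1 library at a time gave 9 to 11 higher and 7 to 12 lower for beta over alpha, 6 to 8 and 10 to 12 for beta over delta, and 5 to 6 and 11 to 14 for alpha over delta, with 2 to 2, 2 to 3 and 3 to 6 members enriched in beta, alpha and delta libraries. Correlations between libraries of different subsets were taken of their deviations, and not of their expression levels. For libraries with the same replicate number they were 0.0009 to 0.112, of which 1 of 9 was over 0.1. For libraries with different numbers they were -0.102 to 0.021. In these deviations, 7 of the 9 libraries correlated best with their own number in both other subsets. The main fit did not use the number, and whether it pairs samples was not tested. With a replicate block, 11 members were higher and 10 lower for beta over alpha, 8 and 11 for beta over delta, and 6 and 11 for alpha over delta, and 2, 3 and 4 were enriched. The calls gained were Gna13 (adjusted p = 0.0295) and Gnb2 (0.0286) for beta over alpha and Gnai1 (0.00967) and Gnb2 (0.0424) for beta over delta, and the call lost was Rgs5 for beta over delta (0.0543). DESeq2, RLE factors and both count filters kept every count of calls within 1.5 times, although single calls changed. DESeq2 gained Gnai1 for beta over delta (adjusted p = 0.0329) and Rgs20 for alpha over delta (0.0348). With no filter, edgeR gained Gnb2 for beta over alpha (0.0265) and Gnai1 for beta over delta (0.000572). It also gained Rgs20 for alpha over delta (0.0295), then enriched in delta libraries, and lost Gnat2 for beta over delta (0.0521). Depth limits the 18 members that had too few counts to be tested.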
